A study of Homo sapiens with 8 samples.

Results

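m6A peaks were examined on 10 genes of the TGF-beta and BMP signalling pathway in HCT116 cells. The genes are the receptors TGFBR1, TGFBR2, ACVR1B and BMPR2, the signal transducers SMAD2, SMAD3, SMAD4 and SMAD7, and the corepressors SKI and SKIL. Members were taken by gene symbol, with every listed peak of each gene kept. This gave 29 peaks on 10 of 10 genes, out of 22626 peaks on 12009 genes in the whole list. No peak was listed under an older name of a member (0 peaks). HCT116 is a human colorectal cancer line. The cells carried a stable non-targeting hairpin (labelled sh_NC, with the genotype WT) or a stable knockdown of ALKBH5 (labelled sh_AL1), an enzyme that erases N6-methyladenosine (m6A) marks on RNA. Fragments of polyadenylated RNA were pulled down with an antibody against m6A (the IP) or kept as input, and the series holds 8 libraries, 2 in each of 4 groups. Only 1 label for the hairpin against ALKBH5 appears, and nothing in the labels says that replicates came from separate cultures.

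The values analysed are the authors' own, 1 set per peak for the series, with no value per library, so no replicate error or depth can be given. Enrichment is a linear fold, read as IP over input, and the peak p tests that enrichment. The log2 fold compares the ALKBH5 knockdown with the control, hereafter the 2 arms. The header does not state which arm is the numerator, so only the sign of a fold is given, with no gain or loss assigned to either arm. The labels and header name no correction of the fold for transcript level, and m6A and transcript level cannot be told apart in any fold below. A peak is called where the authors' false discovery rate (FDR) is under 0.05. Of 13 colorectal epithelium markers 6 carried peaks, as did 1 of 8 fibroblast, 1 of 8 leukocyte and 0 of 4 endothelial markers. A gene without a peak may still be expressed. The 13 peaks of the epithelium markers had 6 positive and 1 negative call (53.8%, against 8.23% of all peaks), and 3 positive and 2 negative ones with the folds recentred on the median of all peaks. With p doubled and adjusted again they had 4 positive and 0 negative calls. The part of these marker differences in the member calls was not tested. The targeted transcript was not measured here.

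Ligands of the TGF-beta family bind a pair of receptor kinases. A type II receptor (TGFBR2, or BMPR2 for BMPs) phosphorylates a type I receptor (TGFBR1, or ACVR1B for activin). The type I receptors TGFBR1 and ACVR1B then phosphorylate SMAD2 and SMAD3, which join SMAD4 and enter the nucleus. SMAD7 is an inhibitor that the pathway induces and that blocks the type I receptor, while SKI and SKIL bind the SMADs and repress their targets. In the intestinal epithelium the pathway restrains growth, and several of its genes are recurrently mutated in colorectal cancer. HCT116 is mismatch repair deficient and is known to carry frameshifts in TGFBR2 that inactivate the receptor. m6A is laid down by the METTL3 and METTL14 complex, mostly at an adenosine followed by a cytosine, in long exons and near stop codons.

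A single member peak reached into a sequence held in the RefSeq windows around transcription starts (GRCh38.p14, 250 bases before to 50 after each start). It was SMAD3 peak 1, whose second exon block begins exactly at the annotated SMAD3 start on chromosome 15 and covers all 50 bases of the window after it. The first 30 of those bases, chr15:67065602-67065631 on the plus strand, are printed because they are the part of a member peak whose letters the sequence table holds. Capitals mark AGACT, one form of the m6A context, at bases 8 to 12 of the run.
SMAD3 peak 1, second block: gaaacacAGACTgggagcgggcgggagcgg
The letters were searched on the sense strand only, and AGACT was chosen after the sequence was seen. AAACA, another form, occurs once ahead of AGACT and shares no base with it, and GGACT, the most familiar form, is not in the 50 bases. Of 35116 windows, 4.23% hold AGACT in the 50 bases after the start, 4.33% hold AAACA and 4.9% hold GGACT. The match is a description of the sequence and not a mapped site.

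Across the 10 genes, 4 peaks were called, all with a positive fold: SMAD2 peak 3, TGFBR1 peak 1, SMAD3 peak 3 and SKI peak 3, numbered from the 5′ end of each gene. This is 13.8% of the 29 peaks, against 8.23% of all peaks in the table. For positive folds alone the background was 5.74%, and for negative folds, where 0 member peaks were called, 2.49%. The median log2 fold of the 29 peaks was 0.62 (quartiles -0.16 and 1.31), and that of all peaks was 0.14 (quartiles -0.52 and 0.79). There were 19 positive (65.5%), 9 negative and 1 zero fold among them, where 55.3% of all peaks had a positive fold. With the folds recentred on the median of all peaks, 62.1% of member peaks were positive. The calls depended on the reading of the authors' p: with it doubled and adjusted again, since the table does not say whether it is one-sided, 1 of the 4 (SMAD2 peak 3) passed, where 6.36% of all peaks did. With the folds recentred on the median of all peaks, 1 passed, again SMAD2 peak 3, against 7.78% of all peaks. At an FDR of 0.01 the count was 0, against 4.99% of all peaks. At an unadjusted p of 0.05 it was 8, against 19.9% of all peaks, and 1 of the 8 (TGFBR2 peak 2) had a negative fold. The count was 4 with peaks of a peak p over 1e-5 left out (background 13.0%), with at least 2-fold enrichment required (7.32%) and with overlapping peaks merged (8.53%).

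**Figure D1:**
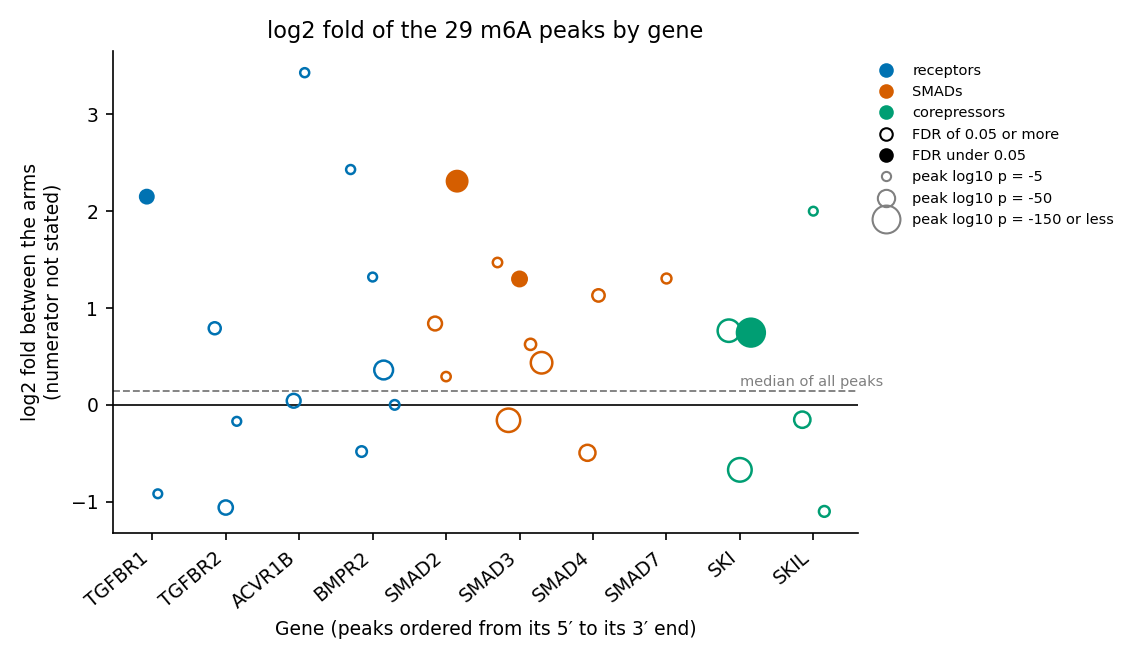
Log2 fold between the arms (vertical axis, numerator not stated) for each of the 29 peaks, grouped by gene and ordered from the 5′ to the 3′ end; colours give the role of the gene, filled circles an FDR under 0.05, and circle area grows with -log10 of the peak p. The 4 filled circles lie between 0.75 and 2.31, the highest open circle is ACVR1B at 3.43, and 7 genes have folds on both sides of 0.

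TGFBR1, the type I receptor for TGF-beta, carried 2 peaks whose folds had opposite signs. TGFBR1 peak 1 covers 510 exonic bases in 2 blocks at chr9:99147771-99149675 (GRCh38), with its middle 4772 bases from the annotated 3′ end. It was enriched 22.5-fold in the authors' deposited table, with a log10 peak p of -24.8 and a log2 fold of 2.15 (p = 0.0026, FDR 0.035). That call did not pass with p doubled (FDR 0.071) or with folds recentred (FDR 0.055). TGFBR1 peak 2, a weak peak of 180 bases nearer the 3′ end, had a log2 fold of -0.92 with an FDR of 0.56 and 3.21-fold enrichment in the authors' deposited table. The stronger peak of the gene was thus the called one.

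TGFBR2, the type II receptor for TGF-beta, had 3 peaks and 0 calls. TGFBR2 peak 2 was the strongest, 659 exonic bases at chr3:30671804-30673997 with 16.2-fold enrichment and a log10 peak p of -29.6 in the authors' deposited table. Its log2 fold of -1.06 (p = 0.014, FDR 0.12, the authors' deposited table) was the negative fold that came nearest to a call among the 29 peaks. TGFBR2 peak 1 joins 3 exon blocks across more than 17 kilobases and had a log2 fold of 0.79 with an FDR of 0.35 in the authors' deposited table. TGFBR2 peak 3, of 150 bases, had -0.17 (FDR 0.75) in the authors' deposited table. For this gene the strongest peak and the 5′ peak thus pointed in opposite directions, neither past the threshold.

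ACVR1B, the type I receptor for activin, held the largest fold of the set on a weak peak. ACVR1B peak 2 covers 270 bases at chr12:51995103-51995372 and had a log2 fold of 3.43 in the authors' deposited table (p = 0.0091, FDR 0.087), with a log10 peak p of -4.33. Peak 1 of ACVR1B, 628 bases upstream, was far stronger, with a log10 peak p of -27.1 and 11.3-fold enrichment in the authors' deposited table. That peak stood at 0.04 with an FDR of 0.68 in the authors' deposited table. These 2 peaks thus differed by 3.39 on the log2 scale within less than 1 kilobase, where the weak one missed the threshold.

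BMPR2, the type II receptor for BMPs, carried 5 peaks, toward both ends of a gene of 191423 bases, and none was called. BMPR2 peak 4 covers 1111 bases of 1 exon block at chr2:202555288-202556398. It was enriched 52.6-fold in the authors' deposited table, at percentile 98.6 of all peaks, with a log2 fold of 0.36 at an FDR of 0.53. BMPR2 peaks 1 and 2 lie near the annotated start, with middles 390 and 975 bases from it. Their log2 folds were 2.43 (FDR 0.47) and -0.48 (FDR 0.58) in the authors' deposited table. BMPR2 peak 3 stood at 1.32 (FDR 0.63) and peak 5 at 0.0 with an FDR of 0.71 in the authors' deposited table. A fold of exactly 0 was listed for 262 peaks of the table. The best-enriched receptor peak therefore lay close to the median fold of all peaks, while the wide folds of BMPR2 fell on weak peaks.

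SMAD2 and SMAD3, the transducers that the TGF-beta and activin receptors phosphorylate, carried 8 peaks, 7 of them with a positive fold. SMAD2 peak 3 covers 480 exonic bases in 2 blocks at chr18:47841545-47844985 on the minus strand, 32827 bases from the annotated 3′ end. Its enrichment was 34.9-fold and its log10 peak p -74.7 in the authors' deposited table. Its log2 fold was 2.31 (p = 0.00059, FDR 0.011, the authors' deposited table), the smallest p of the difference among the 29 peaks. It passed with p doubled (FDR 0.023) and with folds recentred (FDR 0.021), and missed the stricter FDR of 0.01.

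The other SMAD2 peaks were also positive. SMAD2 peak 1, of 3 exon blocks, had a log2 fold of 0.84 (p = 0.017, FDR 0.13) and SMAD2 peak 2, the least enriched peak of the set at 2.23-fold, had 0.29 (FDR 0.58) in the authors' deposited table. All 3 SMAD2 peaks cross exon junctions, and the folds ran between 0.29 and 2.31 on a single gene.

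SMAD3 had 5 peaks, of which 4 were centred within the last 5000 bases of the gene and 1 lay at its start. SMAD3 peak 3, of 631 bases at chr15:67191876-67192506, had a log2 fold of 1.30 (p = 0.0018, FDR 0.028) and an enrichment of 6.7-fold in the authors' deposited table. It did not pass with p doubled (FDR 0.055) or with folds recentred (FDR 0.057). Peaks 2, 4 and 5 of SMAD3, centred in the same stretch, had smaller folds. SMAD3 peak 2, with a log10 peak p of -102, stood at -0.16 (FDR 0.60) in the authors' deposited table. SMAD3 peaks 4 and 5 stood at 0.62 (FDR 0.50) and 0.44 (FDR 0.41) in the authors' deposited table. Peak 5 was the only member peak centred within 1000 bases of an annotated 3′ end.

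SMAD3 peak 1, the start-site peak that holds the AGACT run, had a log2 fold of 1.47 with an FDR of 0.62 and 20.3-fold enrichment in the authors' deposited table. Its first block of 62 bases lies upstream of the annotated start and is wholly shared with a peak of ENSG00000259347, a transcript on the opposite strand. That antisense peak had a log2 fold of -2.07 with an FDR of 0.29 in the authors' deposited table. The use of strand in counting was not given in the sources used here, and reads of these transcripts cannot be told apart over the shared bases.

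SMAD4, the partner shared by both pathway branches, and the inhibitor SMAD7 had no called peak. SMAD4 peak 2, of 481 exonic bases at chr18:51077408-51078724, had a log2 fold of 1.13 (p = 0.039, FDR 0.22) and 6.29-fold enrichment in the authors' deposited table. SMAD4 peak 1, with 9.3-fold enrichment, stood at -0.50 (FDR 0.55) in the authors' deposited table. Of its 390 exonic bases, 371 are also listed in a peak of ENSG00000267699 on the same strand, with a log2 fold of -0.59 at an FDR of 0.47 in the authors' deposited table, so this locus appears under both genes. SMAD7 was the only member with 1 peak, 480 bases at chr18:48921347-48921826. Its log2 fold was 1.31 (FDR 0.41) and its enrichment 7.59-fold in the authors' deposited table.

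SKI, a corepressor of the SMADs, held the 2 strongest peaks of the set, its peaks 3 and 2. SKI peak 3 covers 868 bases at chr1:2307552-2308419, with a log10 peak p of -249 and 27.8-fold enrichment in the authors' deposited table. Its log2 fold was 0.75 (p = 0.003, FDR 0.039, the authors' deposited table), the smallest fold among the 4 called peaks. The call did not pass with p doubled (FDR 0.079) or with folds recentred (FDR 0.11). SKI peak 2 ends 89 bases before it and had the opposite sign, at -0.67 (FDR 0.31) with 18.1-fold enrichment in the authors' deposited table. SKI peak 1, near the start of the gene, stood at 0.77 (FDR 0.27) in the authors' deposited table.

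SKIL, which encodes the related corepressor SnoN, had 3 peaks and 0 calls. SKIL peak 1 is the longest and most enriched peak of the set, 1467 bases in 1 exon block at chr3:170359756-170361222 with 59.1-fold enrichment in the authors' deposited table. Its log2 fold was -0.15 (FDR 0.63) in the authors' deposited table. SKIL peaks 2 and 3 lie 690 bases apart and had log2 folds of 2.0 (FDR 0.50) and -1.1 (FDR 0.47) in the authors' deposited table. The 2 most enriched peaks of the set, on SKIL and BMPR2, were thus both uncalled and near 0.

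**Figure D2:**
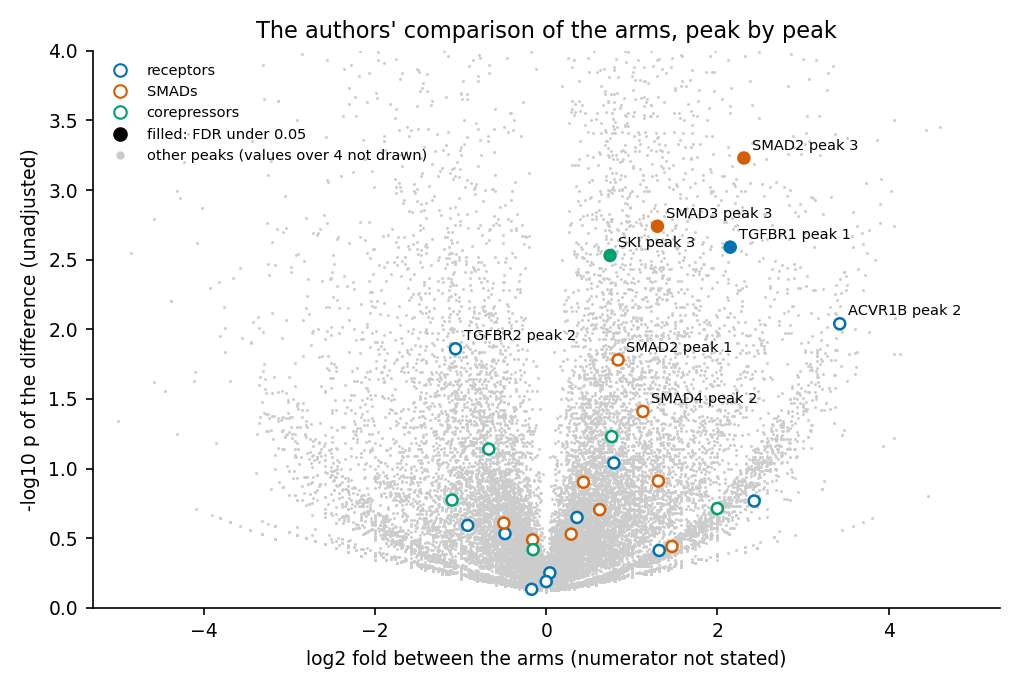
Log2 fold between the arms (horizontal axis, numerator not stated) against -log10 of the authors' unadjusted p (vertical axis) for the 29 peaks in colour and the other peaks in grey, with values over 4 on the vertical axis not drawn. The 4 filled circles, those with an FDR under 0.05, lie on the positive side, and TGFBR2 peak 2 at -1.06 is the highest member on the negative side.

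The listed folds of peaks on 1 gene often differed in sign or size, in the members as in the table as a whole. No difference between 2 peaks was tested, and no neighbouring pair of member peaks had both peaks called. Of 9 members with at least 2 peaks, 7 had folds of both signs, against 59.6% of 5812 such genes in the table. The median range of folds within a member gene was 2.02 on the log2 scale, against 1.33 for all such genes, and genes with more peaks have more room for a range. Within 1000 bases of each other lay 6 pairs of member peaks, 4 with opposite signs, against 46.2% of 4611 such pairs. These pairs were on SKI, SKIL, BMPR2 and SMAD3, while the ACVR1B pair and the last SMAD3 pair were of 1 sign.

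The 3 largest folds without a call, on ACVR1B, BMPR2 and SKIL, sat on weak peaks. Of the 29 peaks, 6 had a peak p over 1e-5, with a median absolute log2 fold of 1.66 and 0 calls. The other 23 had a median absolute log2 fold of 0.75 and 4 calls (17.4%). The whole table showed the same order, with medians of 0.85 and 0.59 and with 1.28% and 11.5% of peaks called. All 4 called member peaks were among the 14 with a peak p of 1e-20 or smaller, a class in which 18.8% of all peaks were called. Read counts were not analysed here, and their part in these folds was not tested.

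**Figure D3:**
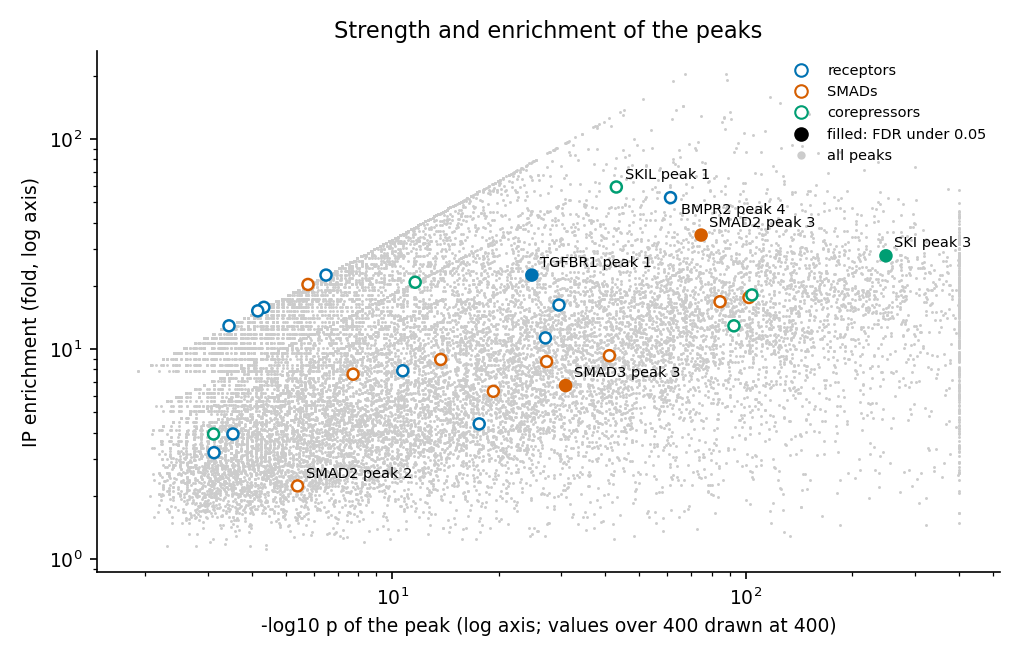
IP enrichment (vertical, fold, log axis) against -log10 of the peak p (horizontal, log axis) for all peaks in grey and the 29 member peaks in colour, filled where the FDR was under 0.05. SKIL peak 1 and BMPR2 peak 4 are the most enriched members, SKI peak 3 is the strongest, and 5 members at a log10 peak p between -6.49 and -3.45 lie on the upper edge of the grey cloud.

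Of the peaks with a log10 peak p between -6.49 and -3.45, 5 stood at the upper edge of enrichment for their strength. TGFBR2 peak 3, ACVR1B peak 2, BMPR2 peaks 1 and 5 and SMAD3 peak 1 each had an enrichment that no peak of like strength exceeded (log10 peak p within 0.1). Those peaks numbered 570, 613, 657, 251 and 316, and the enrichments in the authors' deposited table were 12.9, 15.8, 15.2, 22.5 and 20.3-fold. A tie counts as not exceeded here, and enrichment values repeat across the table. The value 12.9 was listed for 357 peaks of the whole table and 22.5 for 119, so these members need not stand alone at the edge. Among the 5 were ACVR1B peak 2 and BMPR2 peak 1, which hold the widest folds of the set.

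Member genes carried more and longer peaks than the table as a whole, but they were chosen with earlier results of these data known. There were 2.9 peaks per gene against 1.88, and 6 of 10 genes had at least 3 peaks, against 21.3% of all genes. The median exonic length was 391 bases against 300, and the median enrichment 12.9-fold against 10.1-fold. The median log10 peak p was -19.3 against -8.2. Peaks of more than 1 exon block numbered 13 (44.8%), against 30.4% of all peaks, and 7 of the 11 SMAD peaks were of that kind. These differences are descriptions of 10 chosen genes and were not tested. Several were also seen in related genes. The other receptors and co-receptors had a median length of 570 bases, a median enrichment of 19.8-fold and 1.4 peaks per gene. For the other SMADs these values were 345 bases, 15.7-fold and 2.5.

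Peaks centred close to the annotated 3′ end were few. Of 29 peaks, 1 (3.45%, exact binomial 95% interval 0.0873 to 17.8, counting error only) lay within 1000 bases of it, against 22.1% of 20490 peaks that matched an annotated gene. The interval takes the peaks as independent, while peaks of 1 gene share 1 annotated end, so it is no test of the members against the table. Within 2000 bases there were 5 (17.2%) against 35.7%, and within 5000 bases 13 (44.8%) against 56.9%. Low counts were also seen in related genes, so they were not particular to these members. Within 1000 bases lay 0 of 7 peaks of the other receptors and co-receptors and 0 of 10 of the other SMADs. Within 2000 bases these counts were 1 and 3, and within 5000 bases 3 and 4. The remaining pathway lists had between 14.5% and 33.3% of their matched peaks within 1000 bases. The distances are along the genome, introns included, and bounds of the coding sequence were not used here. The 4 called peaks lay 2228 (SKI), 2978 (SMAD3), 4772 (TGFBR1) and 32827 (SMAD2) bases from that end.

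**Figure D4:**
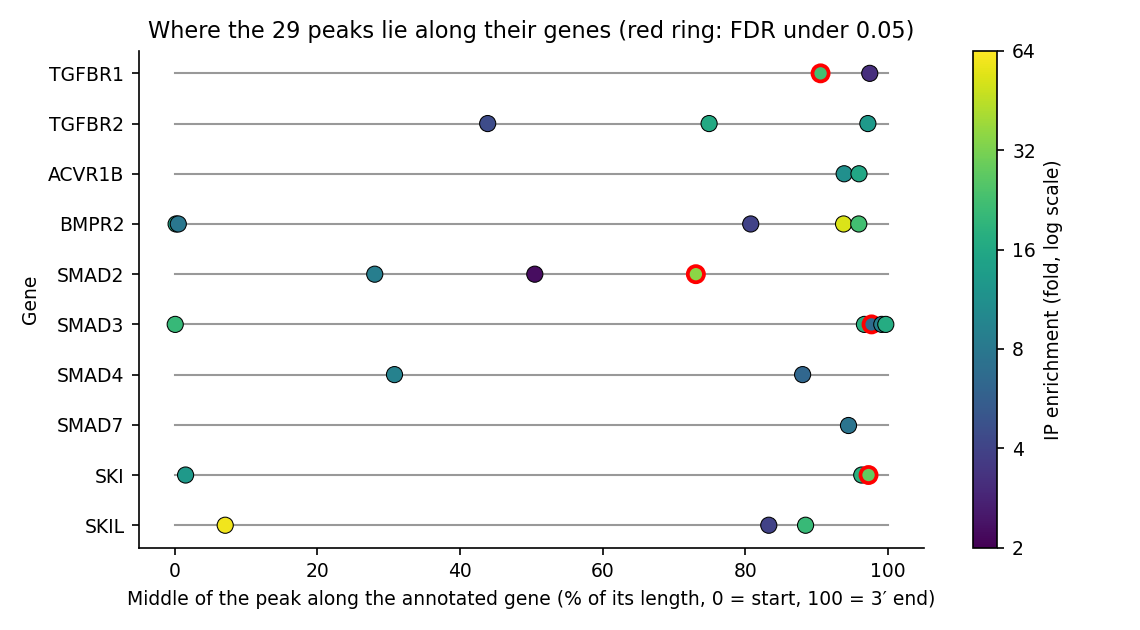
Middle of each of the 29 peaks along its gene (horizontal axis, percent of the annotated length, 0 at the start and 100 at the 3′ end), coloured by IP enrichment on a log scale, with a red ring where the FDR was under 0.05. Peaks of BMPR2, SMAD3, SKI and SKIL lie at both ends of the gene, and those of SMAD2 lie between its ends.

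The rest of the pathway was followed in 7 lists with 179 genes, of which 123 carried 244 peaks. Of these peaks 18 were called with a positive and 13 with a negative fold (12.7%, against 8.23% of all peaks), and the median log2 fold was 0.20. With the folds recentred, the split was 14 positive and 20 negative, against 4.13% and 3.66% of all peaks. Ligand genes had 1 called peak among 23 (2 negative ones with the folds recentred, and 1 of each sign with peaks of a peak p over 1e-5 left out), on TGFB1, which encodes TGF-beta 1. Its log2 fold was -1.37 (FDR 1.1e-05) in the authors' deposited table. Genes of ligand latency, activation and antagonists had 1 among 9, on THBS1, whose product thrombospondin activates latent TGF-beta, with 1.44 (FDR 0.015) in the authors' deposited table. Among the rest, the other receptors and co-receptors had 0 called peaks among 7, with folds between -0.85 and 1.65, and the other SMADs 0 among 10, with folds between -2.25 and 1.86. The lowest, SMAD1 peak 2, was given p = 0.0051 and an FDR of 0.059 by the authors' deposited table. The other SMADs had 1 negative call with the folds recentred, with peaks of a peak p over 1e-5 left out and at an unadjusted p of 0.05.

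Regulators of the receptors and SMADs had 9 called peaks among 85 (10.6%, against 8.23% of all peaks), on 8 genes. All 9 had a positive fold as deposited, where 5.74% of all peaks were called positive and 2.49% negative. With the folds recentred there were 7 positive and 2 negative calls, against 4.13% and 3.66% of all peaks. The authors' deposited table gives 1.66 (FDR 0.0026) for peak 4 of 4 on USP9X, a deubiquitinase that acts on SMAD4. Peak 1 of 4 on TAB2, an adaptor of the kinase TAK1, stood at 1.39 (FDR 1.6e-19) and peak 3 of 5 on SMURF2, a ubiquitin ligase of SMADs and receptors, at 1.28 with an FDR of 6.6e-05 in the authors' deposited table. Peak 1 of 2 on the decoy receptor gene BAMBI (FDR 0.017) and on the phosphatase gene PPM1A (FDR 0.0085) both stood at 1.17 in the authors' deposited table.

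Nuclear partners and corepressors had called peaks of both signs, 5 positive and 9 negative among 67, or 4 and 8 with overlapping peaks merged, against 5.74% and 2.49% of all peaks. In the related corepressor genes, peak 2 of 2 on TGIF1 stood at 1.13 (FDR 7.9e-19) and peak 1 of 2 on TGIF2 at -1.66 (FDR 0.019) in the authors' deposited table. Peak 2 of 2 on E2F4, which joins SMAD3 in repressing growth genes, stood at -1.21 (FDR 4.7e-07) in the authors' deposited table. Targets of the pathway had 3 positive and 3 negative called peaks among 43, against 5.74% and 2.49% of all peaks. They had 3 and 5 with the folds recentred, 3 and 1 with at least 2-fold enrichment required, and 3 and 2 with overlapping peaks merged, with p doubled or at an FDR of 0.01. Each value here is that of 1 called peak of the gene, and other peaks of a gene can differ. The cell cycle inhibitor gene CDKN1C stood at 1.59 (FDR 0.003), the matrix protein gene CCN1 (peak 1 of 2) at 1.52 (FDR 0.002), the BMP target ID2 (peak 2 of 2) at 0.68 (FDR 0.00013) and MYC (peak 1 of 3), which TGF-beta represses in epithelium, at -0.47 with an FDR of 0.041 in the authors' deposited table. The MYC call did not pass with p doubled (FDR 0.081).

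**Figure D5:**
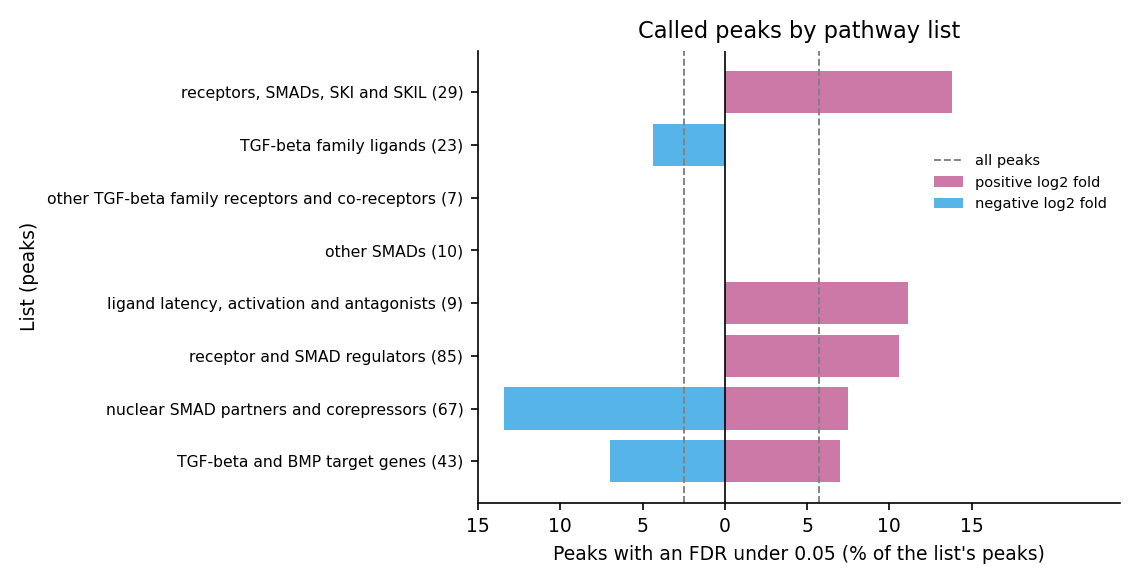
Share of each list's peaks with an FDR under 0.05 (horizontal axis, percent; positive folds to the right and negative folds to the left of 0), with the number of peaks in brackets and dashed lines at the shares of all peaks, 5.74% and 2.49%. Receptors, SMADs, SKI and SKIL and the receptor and SMAD regulators have calls on the positive side alone with the folds as deposited (recentred, the regulators have 2 negative calls), and nuclear partners have the longest bar on the negative side.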

How the data were processed

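The authors processed the reads. Per the submitters' processing notes the build was GRCh38 and HOMER 4.9.1 and BWA 0.7.12 were used, with no step named. No label or header names the peak caller. The protocols in the labels list several antibodies against m6A without saying which served for the table. The deposited table holds 1 row per peak. Per the file headers, it gives the authors' p-value of the peak, its log10, a fold enrichment (linear ratio), and the log2 fold, log10 p and log10 FDR of the comparison of the arms.

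Members and gene lists were chosen with earlier results of these data known. The table was read with pandas 2.3.3 (Python 3.11.15). Positions are 1-based, distances use the GRCh38.p14 RefSeq gene table matched by symbol, and the middle of a peak is that of its exonic bases. All 29 peaks and 20490 in all overlapped the gene of their symbol. Of each other list, up to 4 genes with a called peak were named, by absolute log2 fold, ties kept. Not every gene that this takes is reported here. Alternatives were Benjamini-Hochberg adjusted over all peaks kept. Overlapping peaks were merged by keeping 1 peak per run of overlapping outer bounds, introns included, on either strand. The peak kept was that with the smallest p of the difference. This choice uses the tested value and can raise the share called. For recentring, a standard error was taken from fold and p, read as one-sided, where p was under 0.3, and was elsewhere regressed on the peak's p, length and enrichment (R2 0.90 in peaks left out of the regression). The largest p of the difference was 0.773, and whether p is one-sided is not stated. The one-sided reading, and with it the doubling of p, is therefore an assumption. The code was tested on simulated data. Tests across libraries and motif counts over whole peaks need values or sequences not used here.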

Additional observations from a re-analysis of the deposited data

How the results depend on the processing

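The number of called member peaks was 4, all positive. It was 0 at an FDR of 0.01. With p doubled it was 1 and with folds recentred 1, in both cases positive. At an unadjusted p of 0.05 it was 8, with 7 positive and 1 negative. It was also 4 with weak peaks (p over 1e-5) left out (13.0% of all peaks kept were called), with an enrichment of at least 2-fold required (7.32%) and with overlapping peaks merged (8.53%). None of the called member peaks could be left out by these settings, which changed only the adjustment, so the equal count is no test of the calls. In the pathway lists, 18 positive and 13 negative calls became 11 and 10 at an FDR of 0.01, 14 and 12 with p doubled, 14 and 20 with folds recentred, and 33 and 25 at an unadjusted p of 0.05. The share of all peaks called moved with the setting too, from 8.23% to 4.99%, 6.36%, 7.78% and 19.9% in the same order. No paired analysis was possible because the table holds no value per library, and leaving out a replicate was not run for the same reason. The motif count over whole peaks was not run. Depth is unknown, so no fold has a counting error.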

Other observations

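Among the nuclear partners, the 4 genes of the AP-1 factors that bind DNA with SMADs (JUN, JUNB, JUND and FOS) carried 9 peaks. Of these 9 peaks, 6 were called negative and 1 positive, where 2.49% of all peaks were called negative and 5.74% positive. All but JUN peak 3 were strong peaks, with a log10 peak p of -46.9 or lower. Of all peaks with a peak p of 1e-20 or smaller, 18.8% were called in either direction. Calls of these peaks with p doubled or with folds recentred are not given here. The whole nuclear list had 9 negative calls. The 2 JUND peaks overlap, so that 1 locus is counted in both, and the nuclear list has 8 negative calls with overlapping peaks merged. These genes were singled out after their values were seen. FOS had a log2 fold of -1.06 (FDR 0.0019) and JUN peak 2 one of -0.91 at an FDR of 2e-05 in the authors' deposited table. The 2 peaks of JUNB stood at -0.28 (FDR 0.0055) and -0.29 (FDR 0.00019), and those of JUND at -0.46 (FDR 5.6e-06) and -0.45 (FDR 5.2e-07), in the authors' deposited table. JUN peak 1 was called with the other sign, at 0.71 (FDR 0.037) in the authors' deposited table. JUN peaks 3 and 4 were not called, at -1.37 (FDR 0.21) and -0.31 (FDR 0.35) in the authors' deposited table.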
